A study of Mus musculus with 4 samples.

Results

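Cytochrome P450 genes of the mouse ileum were compared between control and metformin-treated mice. The members were the genes whose array probes carry a RefSeq accession that maps to a symbol made of Cyp, a number, a letter and a number. This rule left out Cyp51 and symbols ending in -ps. It found 89 genes, measured by 110 probes, of the 94 symbols of that form in the RefSeq gene table. Of these, 67 were kept because their brightest probe stood well above background on both control arrays or on both metformin arrays, among 21648 genes and unnamed transcripts kept by the same filter. On all 4 arrays 59 were well above background, and summaries over the family use these 59. The other 8 kept members were Cyp2a4, Cyp2b9, Cyp2b19, Cyp2d9, Cyp2w1, Cyp7b1, Cyp19a1 and Cyp27b1. All but 1 of the 89 genes are annotated as protein-coding, the exception being Cyp2d13, a transcribed pseudogene.

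The RNA came from the ileum of C57BL/6J male mice aged 10 weeks, with 2 control samples and 2 samples from mice given metformin, a biguanide used against type 2 diabetes, by mouth at 1000 mg/kg. The groups share strain, sex and age and differ by the drug named in the sample titles, although the treatment text stands on all 4 samples. Neither a length of treatment nor a vehicle is stated. Each sample was labelled with Cy3 and hybridised to its own single-colour array. The labels do not state whether replicates are separate animals, and p-values therefore reflect only sample-to-sample spread, which may be technical. In whole tissue, fewer cells of a type and less RNA per cell cannot be told apart.

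Cytochrome P450 enzymes are haem proteins, most of them of the endoplasmic reticulum, that insert oxygen into their substrates with electrons from P450 oxidoreductase. Families 1 to 3 act largely on drugs, plant compounds and other foreign chemicals, family 4 oxidises fatty acids and eicosanoids, and the higher-numbered families mostly handle sterols, bile acids, steroid hormones, vitamin D and retinoic acid. In the gut, villus enterocytes carry much of the Cyp3a and Cyp2c enzyme that meets ingested compounds, and the receptors AhR, PXR, CAR and PPARA control many of these genes.

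All arrays shared 1 slide and 1 scan, with controls at positions 1 and 2 and metformin samples at positions 3 and 4, so position and treatment cannot be told apart. Between 65.1% and 69.1% of probes were well above background on an array, and no spot was saturated. Levels are log2 signals after subtraction of each array's 75th percentile, in the order control 1, control 2, metformin 1 and metformin 2, and compare arrays for a probe, not probes with each other. The array labelled metformin 1 stood apart in gut region markers. Of 14 proximal small intestine markers 13 were measured (Pdx1 was not well above background), and their summed linear level was 1247 in metformin 1, 179 in metformin 2 and 203 to 383 in the controls. Fabp6, the ileal bile acid-binding protein, stood at 8.94, 8.29, 4.16 and 8.69, and Slc10a2, the ileal bile acid transporter, at 4.45, 3.28, -0.90 and 4.92. The 10 distal small intestine markers, all measured, summed to 433 in metformin 1, 931 in metformin 2 and 695 to 970 in the controls. Control 1 stood apart in smooth muscle markers, whose summed level over the 8 of 10 measured was 134 against 4.25 to 6.55 on the other arrays. Because of this, values for single arrays are given beside each group difference.

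Most P450 genes of families 1 to 4 were highest in metformin 1 and not in metformin 2, while Cyp1b1, Cyp2e1 and Cyp7b1 were lower in both metformin samples than in both controls. No member passed the test: limma with Benjamini-Hochberg adjustment over all 21648 features called 0 of 67 at an adjusted p of 0.05 in either direction, against a background of 0% of all features higher and 0% lower. The smallest adjusted p of a member was 0.999999. At an unadjusted p under 0.05 the same fit had 2 members higher, Cyp2b19 and Cyp2d9, against 0.346% of all features, and 2 lower, Cyp1b1 and Cyp7b1, against 1.26% of all features. Cyp2b19 and Cyp2d9 passed the background filter only through the metformin group and Cyp7b1 only through the control group, so a difference was built into their selection and nothing is read from these shares. For 1 gene, an exact permutation of 2 against 2 samples cannot give a two-sided p below 0.333.

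With metformin, 4 of the 67 members (5.97%) were at least 2-fold higher with no overlap of the groups, against 0.628% of all features, and 3 (4.48%) were at least 2-fold lower, against 2.32% of all features. These counts include Cyp2b19, Cyp2d9 and Cyp7b1, for which the filter built in a difference, and background limits Cyp2b19 and Cyp2d9 to bounds under 2-fold, given below with each gene. Among the 59 members measured on all arrays, 2 were higher by this rule, Cyp2c38 and Cyp4a31, against 0.203% of such genes, and 2 were lower, Cyp1b1 and Cyp2e1, against 1.92%. Non-overlap of any size was met by 6 members in the higher direction, which adds Cyp2c70 and Cyp2a4, the latter also kept only through the metformin group, against 12.3% of all features, and by the same 3 in the lower direction, against 8.57%. Of all features that met the 2-fold rule, 21.3% were higher in metformin. That share was 34.0% when arrays were centred on their medians and 10.1% after normexp background correction, and median centring moved the median difference of all genes from 0.06 to 0.19 and that of the 59 P450 genes from 0.46 to 0.59. The count of 4 higher members became 14 without control 1, 2 without metformin 1 and 36 without metformin 2, where the share of all features was 3.12%, 1.62% and 7.1%. The count of 3 lower members became 8 without metformin 1, where the share of all features was 3.95%. The higher members left without metformin 1 were Cyp2b19 and Cyp2d9, and the lower ones then included Cyp2b9 and Cyp7b1. The filter kept each of these genes through a single group, so a difference was built in. With normexp correction no member was 2-fold higher and only Cyp2e1 was 2-fold lower.

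**Figure D1:**
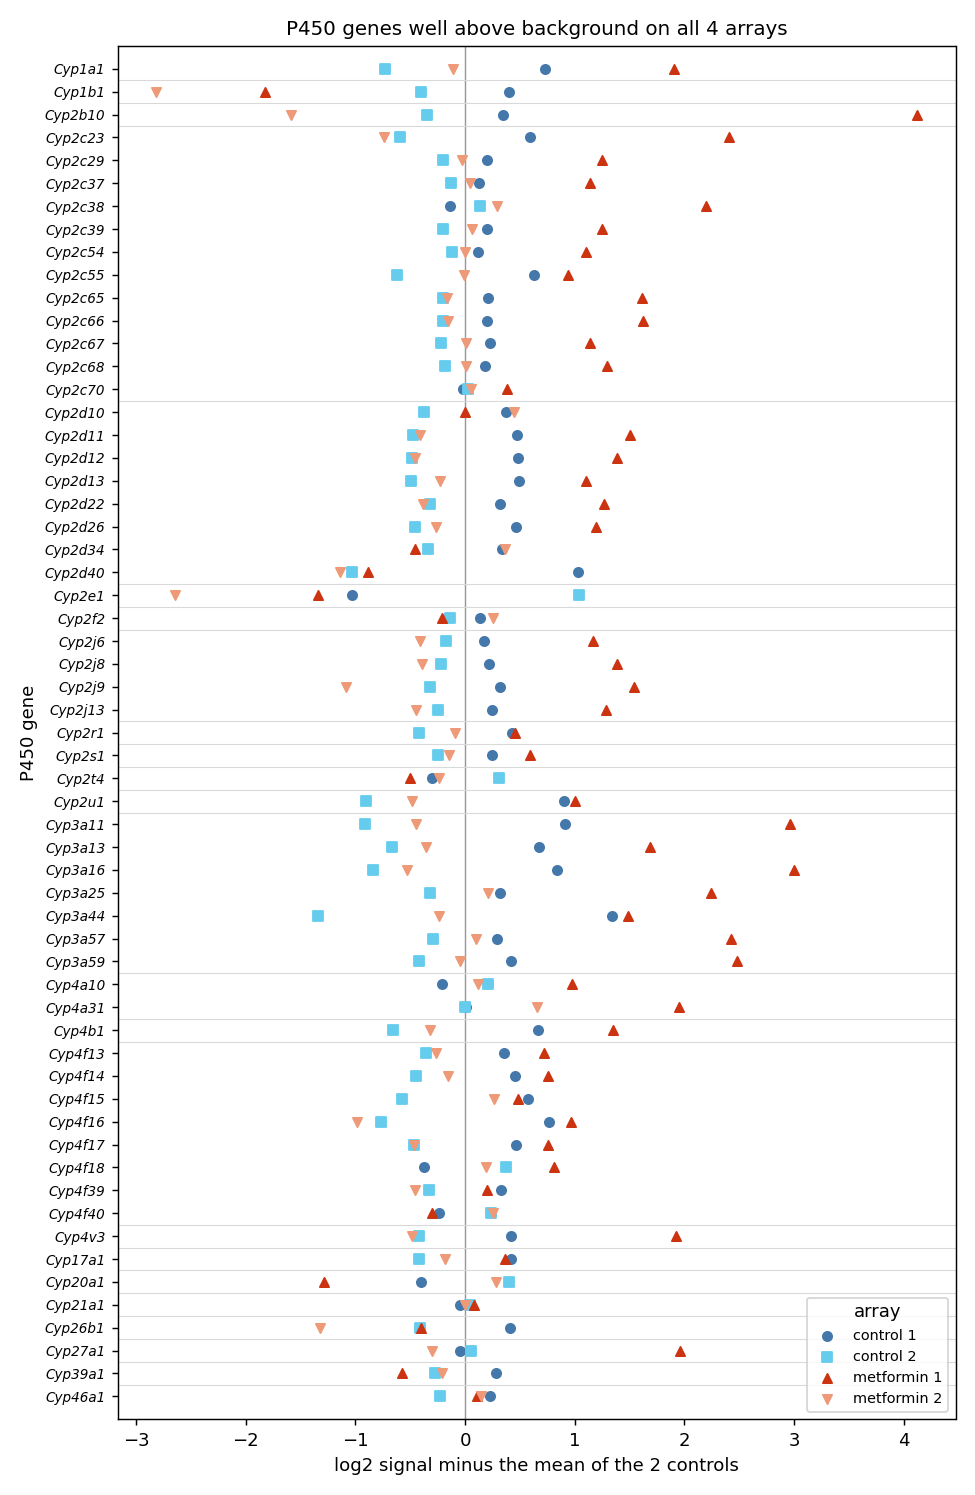
Log2 signal of the P450 genes measured on all 4 arrays, each shown relative to its mean over the control arrays, with 1 row per gene, the level on the horizontal axis and 1 marker per array. Metformin 1 is the highest array for 44 of the 59 genes, and its median lies 1.13 above the control mean, while the median in metformin 2 lies at -0.19.

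Cyp1b1, which oxidises oestrogens, retinoids and polycyclic aromatic compounds and is an AhR target, had levels of -3.08, -3.88, -5.30 and -6.30. Both metformin samples lay below both controls. The group means were -3.48 ± 0.56 and -5.80 ± 0.71 (SD, n = 2 each). The difference was -2.32 on the log2 scale (SE 0.51), or 4.99-fold lower. It had the smallest unadjusted p among the members in the limma fit, 0.00816, and did not pass after Benjamini-Hochberg adjustment.

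Cyp2e1, which oxidises ethanol, acetone and other small molecules, had levels of -3.67, -1.59, -3.97 and -5.27. Control 2 was the highest array, and control 1 lay only slightly above metformin 1. The difference was -1.99 (SE 0.87), or 3.98-fold lower, and it was -0.96 without control 2 and -3.03 without control 1. A dimmer probe for Cyp2e1 gave -6.48, -3.81, -6.47 and -6.94. On that probe only control 2 was high, and control 1 did not lie above metformin 1.

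Cyp7b1, the oxysterol 7-alpha-hydroxylase of the alternative bile acid pathway, had levels of -3.68 and -4.91 in the controls and -5.78 and -7.67 in the metformin samples. The groups did not overlap, and metformin 2 was not well above background. The measured difference was -2.43 (SE 0.81), and it was -1.48 without metformin 2. With metformin 2 set to the lowest signal well above background on that array, Cyp7b1 was at least 4.85-fold lower with metformin. The sizes of these differences depended on how background was handled. After normexp correction they were -0.69 for Cyp1b1, -1.09 for Cyp2e1 and -0.62 for Cyp7b1.

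The promoter windows of Cyp1b1 and Cyp2e1 are shown because these genes had the lowest metformin-to-control differences among members measured on all arrays. They come from RefSeq on GRCm38.p6 and run 5′ to 3′ on the gene's strand, from 250 bases before to 50 bases after the start. The window of Cyp1b1 is chr17:79715012-79715311 on the minus strand, and that of Cyp2e1 is chr7:140763569-140763868 on the plus strand. Capitals mark matches to the motifs searched on both strands: GCGTG, the core that AhR binds, which reads CACGC on the other strand; AGGTCA, bound by nuclear receptors; AGATAA, bound by GATA factors; and TATAAA, the TATA box. No marked matches overlap.
Cyp1b1: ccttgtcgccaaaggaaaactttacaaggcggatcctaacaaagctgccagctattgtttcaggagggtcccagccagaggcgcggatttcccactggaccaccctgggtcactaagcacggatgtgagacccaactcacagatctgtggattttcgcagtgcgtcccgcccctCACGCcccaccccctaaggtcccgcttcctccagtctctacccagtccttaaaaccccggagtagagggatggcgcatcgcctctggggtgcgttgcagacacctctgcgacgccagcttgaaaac
Cyp2e1: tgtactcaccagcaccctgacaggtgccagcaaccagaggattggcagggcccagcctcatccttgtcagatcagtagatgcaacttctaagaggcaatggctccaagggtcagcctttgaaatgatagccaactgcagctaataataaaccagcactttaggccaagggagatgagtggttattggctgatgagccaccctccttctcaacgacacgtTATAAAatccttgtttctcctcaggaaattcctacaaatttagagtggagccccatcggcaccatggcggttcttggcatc
The Cyp1b1 window holds the AhR core motif on the minus strand relative to the gene, and the Cyp2e1 window holds the TATA box letters.

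RefSeq promoter windows were matched for 68 of the 89 members. The AhR core GCGTG stood in 20.6% of these 68 windows and in 32.5% of all 27025 promoters of the same length. AGGTCA stood in 27.9% against 16.0%, AGATAA in 22.1% against 11.4%, and TATAAA in 38.2% against 14.2%. A match describes the letters of a window and was not tested as a binding site.

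Markers of fibroblasts and adipocytes were also lower in the metformin samples. All 11 fibroblast markers were measured, and 10 were at least 2-fold lower with no overlap, against 2.32% of all features. The summed level of the 11 markers was 20.95 to 44.55 in the controls and 7.39 to 18.96 in the metformin samples. Of 9 adipocyte markers 8 were measured (Lep was not well above background) and 7 were lower by the same rule, with sums of 15.2 to 17.6 in the controls and 7.11 to 23.9 in the metformin samples. The exception, Cidec, a lipid droplet protein also made by enterocytes, stood at 3.29, 2.76, 4.46 and 2.72. Among the lower markers, Dpt of fibroblasts and Plin1 of adipocytes were kept only through the control group, so a difference was built in. Adipoq, the adipocyte hormone adiponectin, stood at -2.60, -1.14, -4.31 and -6.54, and Col1a1, a fibroblast collagen, at 1.27, -0.44, -1.31 and -2.22. Of 10 smooth muscle markers 8 were measured (not Myocd and Lmod1) and 6 were lower by the rule, with sums of 6.55 to 134 in the controls and 4.25 to 5.53 in the metformin samples. Of 10 endothelial markers 9 were measured (not Tek) and 5 were lower, with sums of 4.47 to 6.08 and 4.36 to 5.32. Cyp1b1 and Cyp7b1 were highest in control 1, as was the median of the fibroblast markers, and Cyp2e1 was highest in control 2, as was the median of the adipocyte markers. The part of these cells in the lower P450 levels was not tested.

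**Figure D2:**
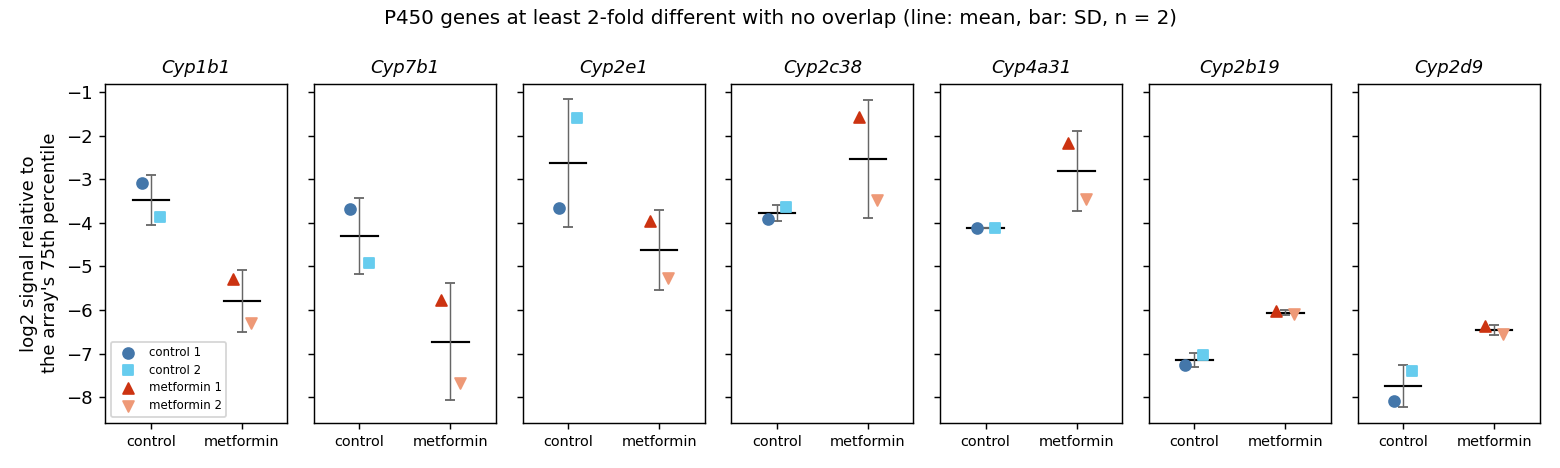
Log2 signal, after subtraction of the array's 75th percentile, on each array for the 7 P450 genes at least 2-fold different in measured signal with no overlap of the groups, with 1 panel per gene, points for arrays, black bars for group means and error bars for SD (n = 2). Cyp1b1, Cyp2e1 and Cyp7b1 lie lower in both metformin arrays, while Cyp2c38 rests on metformin 1, at -1.58 against -3.49 in metformin 2.

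Cyp4a31, a fatty acid omega-hydroxylase of the Cyp4a cluster, had levels of -4.12 and -4.13 in the controls and -2.17 and -3.46 in the metformin samples. Both metformin samples lay above both controls, and metformin 1 was the higher of them. The difference was 1.30 (SE 0.51), or 2.47-fold, and did not pass after adjustment. It was 0.66 without metformin 1, 1.95 without metformin 2 and 0.83 after normexp correction.

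Cyp2c38, a member of the Cyp2c cluster that forms arachidonic acid metabolites, had levels of -3.91, -3.64, -1.58 and -3.49. Metformin 2 lay only 0.29 above the control mean, and metformin 1 lay 2.20 above it. The difference of 1.25 (SE 0.70), or 2.37-fold, was 0.29 without metformin 1 and 2.20 without metformin 2.

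Cyp2b19 and Cyp2d9 were near background. Cyp2b19, an epoxygenase known from skin keratinocytes, had levels of -7.26, -7.03, -6.03 and -6.10, with 1 of 2 control arrays well above background. The measured difference was 1.08 (SE 0.29), and it was 0.33 after normexp correction. With the dim control at the lowest signal well above background on its array, Cyp2b19 was at least 1.59-fold higher. Cyp2d9, a steroid 16-alpha-hydroxylase of male mouse liver, had levels of -8.09, -7.40, -6.37 and -6.54. Both of its control arrays were not well above background, so only a bound is given: at least 1.37-fold higher with metformin. That bound sets the metformin mean against a control mean in which each array contributes its lowest well-above-background signal, or the probe's own signal where that was higher. Both bounds hold only for the processed signal used here. On the log2 scale they were 0.67 for Cyp2b19 and 0.45 for Cyp2d9, while the differences after normexp correction were smaller, at 0.33 and 0.40. Of 8 keratinocyte markers 5 were measured, with sums of 2.46 to 2.57 in the controls and 3.50 to 4.13 in the metformin samples, and Krt1, Ivl and Dsg3 were not well above background. The higher sums did not reflect a shared rise, as 3 markers had a positive and 2 a negative difference. Trp63 was highest in metformin 1, at 0.49, -1.35, 1.70 and -0.28, and Krt10 in metformin 2, at 0.08, 0.92, -0.43 and 1.30. The part of keratinocytes in the Cyp2b19 level was not tested.

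Across the 59 members measured on all arrays, metformin 1 was the array most often apart. It was the highest of the 4 arrays for 44 members (74.6%), against 38% of all such genes, and the lowest for 6 (10.2%), against 29.4%. It lay at least 2-fold above the higher control for 23 members (39%), against 2.75% of all genes, while metformin 2 did so for 0 members, against 0.327%. Metformin 2 lay above both controls for 7 members (11.9%), against 27.1% of all genes, and below both for 15 (25.4%), against 21.9%. It lay between them for the remaining 37 (62.7%), against 51%. The controls also differed: control 1 was above control 2 for 49 members (83.1%), against 58.0% of all genes. The median of control 1 minus control 2 was 0.65, against 0.13 over all genes.

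The median metformin-minus-control difference over these members was 0.46, and that of all such genes was 0.05. The difference was positive for 48 members and negative for 11, against 11470 and 8730 of all such genes. The median over the members became -0.19 without metformin 1, 1.13 without metformin 2, 0.07 without control 2 and 0.76 without control 1. The range between a member's highest and lowest array had a median of 1.66, against 0.75 over all genes. It ran from 0.13 for Cyp21a1, the adrenal steroid 21-hydroxylase, to 5.71 for Cyp2b10. Families 1 to 4 had 42 of 52 members (80.8%) highest in metformin 1, and the higher-numbered families 2 of 7 (28.6%), against 38% of all such genes.

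**Figure D3:**
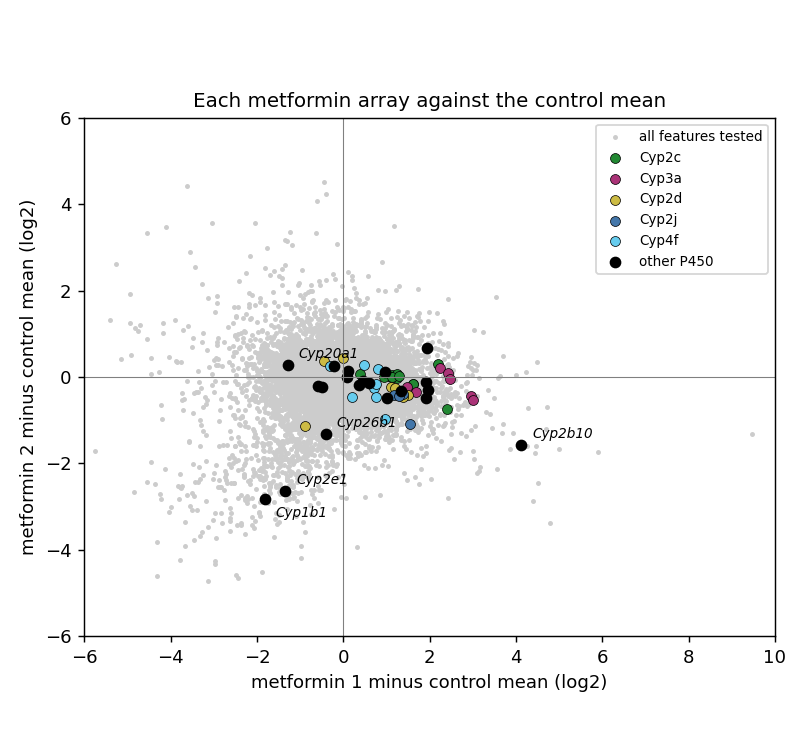
Log2 level of metformin 1 (horizontal axis) and metformin 2 (vertical axis), each minus the control mean, for all 21648 features tested (grey) and the 59 P450 genes measured on all arrays (coloured by subfamily). Most P450 genes lie to the right of 0 and near 0 on the vertical axis, Cyp2b10 lies farthest right among them at 4.13, and Cyp1b1 and Cyp2e1 lie low on both axes.

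Cyp2b10, the drug-metabolising enzyme whose gene is the classic CAR target, had levels of 2.80, 2.11, 6.58 and 0.87. Metformin 1 was the highest array and metformin 2 the lowest, so the groups overlapped. Cyp2b9, its neighbour in the same cluster, had -4.60, -5.20, -0.38 and -7.36, with metformin 2 not well above background. Cyp2b9 was chosen after its values were seen, because its arrays had the same order as those of Cyp2b10.

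All 7 Cyp3a genes on the array were measured on all arrays, and all 7 were highest in metformin 1. Their median lay 2.42 above the control mean in metformin 1 and at -0.24 in metformin 2, where all 7 lay between the controls. Cyp3a11, the main drug-oxidising Cyp3a enzyme of mouse liver and gut and a PXR target, had levels of 4.08, 2.26, 6.14 and 2.73 on its brighter probe. Its other probe gave 1.60, 0.16, 3.86 and 0.42. Both probes had metformin 1 highest and the other metformin sample between the controls.

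Cyp3a16, a form best known from fetal liver, had levels of 1.32, -0.35, 3.48 and -0.05. Cyp3a13, the Cyp3a form prominent in intestine, had 5.03, 3.69, 6.04 and 4.001. Cyp3a25 had 3.33, 2.69, 5.26 and 3.22. In each of these genes metformin 1 was high and metformin 2 lay between the controls. Cyp3a44, a form described as female-predominant in liver, had -2.89, -5.57, -2.74 and -4.47, so control 1 and metformin 1 were close and control 2 was low. The fitted differences of the 7 genes ran from 0.62 to 1.26 and none of them passed the test.

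The promoter windows of Cyp2b10 and Cyp3a11 are shown because these genes, the CAR and PXR target of the family, were among the members with the widest range between arrays. They are chr7:25897408-25897707 on the plus strand and chr5:145879805-145880104 on the minus strand of GRCm38.p6, with capitals as above.
Cyp2b10: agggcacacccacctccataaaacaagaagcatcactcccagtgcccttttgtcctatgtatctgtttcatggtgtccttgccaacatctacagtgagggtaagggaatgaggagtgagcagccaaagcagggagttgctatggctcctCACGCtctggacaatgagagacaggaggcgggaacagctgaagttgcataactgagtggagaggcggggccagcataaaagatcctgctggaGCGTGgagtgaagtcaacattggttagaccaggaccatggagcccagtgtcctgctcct
Cyp3a11: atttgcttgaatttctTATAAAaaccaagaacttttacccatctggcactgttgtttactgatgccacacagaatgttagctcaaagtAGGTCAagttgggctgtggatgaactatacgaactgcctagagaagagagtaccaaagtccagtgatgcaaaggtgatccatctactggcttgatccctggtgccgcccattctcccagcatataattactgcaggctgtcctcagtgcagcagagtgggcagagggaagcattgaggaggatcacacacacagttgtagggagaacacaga
The Cyp2b10 window holds the AhR core motif in each orientation. The Cyp3a11 window holds AGGTCA and the TATA box letters.

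Of 13 Cyp2c genes on the array 12 were measured, all on every array, and all 12 were highest in metformin 1. These enzymes turn arachidonic acid into epoxides and also act on drugs. Their median lay 1.25 above the control mean in metformin 1, within 0.38 to 2.41, and at 0.00 in metformin 2, where 9 of the 12 lay between the controls. The metformin 2 median was -0.06 after quantile normalization and 0.19 with median centring, so it has no settled sign.

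Cyp2c65 had levels of 3.30, 2.89, 4.70 and 2.93, and Cyp2c66 had 3.81, 3.41, 5.24 and 3.45. Both encode intestinal arachidonic acid-metabolising enzymes, and in both only metformin 1 was clearly apart from the other arrays. Cyp2c29, a liver and gut epoxygenase, had 2.01, 1.61, 3.06 and 1.78. Cyp2c55, which makes hydroxylated arachidonic acid in the gut, had 2.46, 1.21, 2.78 and 1.82, so that control 1 lay near metformin 1. Cyp2c23, an epoxygenase best known from kidney, had the widest range of the subfamily, with -2.37, -3.55, -0.55 and -3.70. Cyp2c70, the muricholic acid-forming hydroxylase of mouse bile acid synthesis, met non-overlap with a small difference of 0.22 (SE 0.29) and levels of -4.35, -4.31, -3.95 and -4.27, and was named for that after its values were seen.

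The pair Cyp2c65 and Cyp2c66 had the most alike profiles of the family. Centred on their own means, their log2 levels differed by at most 0.0106 on any array. Their promoter windows, chr19:39060756-39061055 and chr19:39113648-39113947, both on the plus strand of GRCm38.p6, are shown for that reason. Aligned, they shared 256 of 329 columns (77.8%), while the median over 45 pairs of Cyp2c windows was 51.4%. The windows of other pairs with alike profiles varied. Cyp2c29 and Cyp2c39 shared 75.7%, and Cyp3a11 and Cyp3a16 shared 74.8%, where the Cyp3a median was 53.6%. Cyp2c39 and Cyp2c67 shared 60.9%, and Cyp2c29 and Cyp2c67 shared 58.7%. The rest lay near the medians of their subfamilies, as Cyp2c29 and Cyp2c68 at 52.2%, Cyp2c39 and Cyp2c68 at 50.7%, and Cyp2j8 and Cyp2j13 at 48.7%.
Cyp2c65: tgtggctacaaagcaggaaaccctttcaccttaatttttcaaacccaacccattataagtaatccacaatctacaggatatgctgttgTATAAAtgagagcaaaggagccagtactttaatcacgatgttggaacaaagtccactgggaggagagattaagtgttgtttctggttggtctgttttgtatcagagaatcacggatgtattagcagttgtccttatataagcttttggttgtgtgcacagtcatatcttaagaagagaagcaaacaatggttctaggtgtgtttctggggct
Cyp2c66: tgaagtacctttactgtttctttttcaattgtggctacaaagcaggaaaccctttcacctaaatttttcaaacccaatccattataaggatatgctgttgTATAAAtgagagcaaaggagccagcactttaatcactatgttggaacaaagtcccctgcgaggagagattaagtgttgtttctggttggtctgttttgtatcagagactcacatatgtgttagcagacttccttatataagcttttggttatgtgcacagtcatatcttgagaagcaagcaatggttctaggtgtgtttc
Both windows hold the TATA box letters and no other motif searched.

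Alike profiles were a feature of close relatives. Of 150 pairs within a subfamily 12 (8%) had profiles that differed by less than 0.1 on every array after centring, and of 1561 pairs from different subfamilies 2 (0.128%) did. The pairs within a subfamily included Cyp2c37 with Cyp2c54, Cyp2j8 with Cyp2j13, Cyp2d11 with Cyp2d12, and Cyp3a11 with Cyp3a16. Many of these genes are adjacent in the genome: the Cyp2c genes form a run of 14 adjacent protein-coding genes, of which 12 are on the array, and the Cyp3a genes a run of 8 with 6 on the array. Probes for such near-identical genes can bind transcripts of their relatives, and the probe sequences were not used here, so cross-hybridisation and alike transcript levels cannot be told apart. Members of these subfamilies are therefore not independent of one another.

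Of the 9 Cyp2d genes, the relatives of the human debrisoquine hydroxylase, 8 were measured on all arrays and 5 of these were highest in metformin 1. Cyp2d26 had levels of 6.60, 5.68, 7.33 and 5.87, with metformin 1 high and metformin 2 between the controls. Cyp2d40 did not share the pattern, with -0.73, -2.78, -2.64 and -2.89, where control 1 alone was high. It was named after its values were seen, as the member with the lowest difference in the subfamily, -1.01. Cyp2d10 and Cyp2d34 were highest in metformin 2.

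All 4 measured Cyp2j genes, whose enzymes form epoxides and hydroxylated products of polyunsaturated fatty acids, were highest in metformin 1 and lowest in metformin 2 on their brightest probes. Relative to the control mean, their median was 1.33 in metformin 1 and -0.43 in metformin 2. Cyp2j6, the intestinal member, had levels of 1.48, 1.13, 2.47 and 0.89 on its brighter probe and -1.005, -1.56, 0.21 and -1.77 on the other. On both Cyp2j6 probes the metformin samples lay on opposite sides of the controls. A dimmer measured probe of Cyp2j13 did not have this order, with -4.96, -4.69, -4.84 and -4.52, where metformin 2 was highest.

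The groups overlapped in the other named members of families 1 and 2. Cyp1a1, the AhR-induced hydroxylase of aromatic compounds, had levels of -5.04, -6.49, -3.86 and -5.88, highest in metformin 1. Cyp2s1, a form of epithelial surfaces, had 4.32, 3.83, 4.66 and 3.93, and Cyp2u1, a fatty acid hydroxylase, had -3.42, -5.23, -3.32 and -4.81. In both genes control 1 lay near metformin 1 and control 2 was lowest. Cyp2r1, the vitamin D 25-hydroxylase, had 0.21, -0.64, 0.24 and -0.31 on its brighter probe, and its other probe had the opposite direction, the only such case among the 10 members with at least 2 measured probes. Cyp2w1, known from colon tumours, had -6.75, -6.40, -6.20 and -6.48, with 1 of 2 control arrays well above background.

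In family 4, whose enzymes hydroxylate fatty acids and eicosanoids at the chain end, 9 of the 12 measured members were highest in metformin 1. Cyp4v3, a fatty acid hydroxylase, had levels of 5.22, 4.37, 6.72 and 4.31, with metformin 1 well above the other arrays. Cyp4a10, a PPARA target, had -3.03, -2.60, -1.84 and -2.70 on its brightest probe, so metformin 1 was high and metformin 2 lay between the controls. Its other measured probes gave -4.71, -6.08, -1.91 and -5.36, and -5.18, -5.97, -3.87 and -5.41. They had the same pattern in the metformin samples, but with control 1 above control 2. The differences of the 3 probes ran from 0.55, on the brightest, to 1.76. Cyp4b1, which oxidises fatty acids and plant toxins, had 3.49, 2.17, 4.17 and 2.51.

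The 8 measured Cyp4f genes, leukotriene and fatty acid hydroxylases, differed less between arrays. Their median difference was 0.19, within -0.13 to 0.50, and 5 of 8 were highest in metformin 1, or 5 to 7 by the scaling used. Cyp4f14, a leukotriene B4 hydroxylase, had levels of 6.97, 6.07, 7.28 and 6.36, and Cyp4f16 had 2.76, 1.23, 2.96 and 1.01. In both genes control 1 lay near metformin 1, and control 2 near metformin 2.

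The higher-numbered families mostly handle steroids, bile acids, vitamin D and retinoids. Of their 7 members measured on all arrays, 2 (28.6%) were highest in metformin 1, against 38% of all such genes. These shares are close, and nothing is read from the count. The vitamin D enzyme Cyp2r1 is counted in family 2. Cyp27a1, the mitochondrial sterol 27-hydroxylase of bile acid synthesis, had metformin 1 high, with levels of -2.97, -2.87, -0.96 and -3.22. Cyp26b1, which degrades retinoic acid, had -2.61, -3.43, -3.42 and -4.34, with control 1 high, metformin 2 low and the other arrays level. Cyp39a1, the 24-hydroxycholesterol 7-alpha-hydroxylase, had 0.17, -0.39, -0.69 and -0.32.

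Cyp46a1, the brain cholesterol 24-hydroxylase, had levels of -3.31, -3.77, -3.43 and -3.40, and Cyp17a1, the steroid 17-alpha-hydroxylase, had 2.41, 1.57, 2.35 and 1.81. In both genes the metformin samples lay between the controls. Cyp20a1, an enzyme without an assigned substrate, had -3.12, -2.31, -4.01 and -2.44, with metformin 1 lowest. Cyp21a1 had -3.89, -3.80, -3.76 and -3.85, the least variable profile of the family. Cyp19a1, the aromatase that makes oestrogens, was near background at -6.66, -6.89, -6.72 and -7.06, and Cyp27b1, which activates vitamin D, at -6.59, -6.76, -6.75 and -6.43, both with 1 of 2 control arrays well above background.

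The remaining 22 members did not pass the background filter, 19 of them on no array. They include Cyp1a2, the liver caffeine hydroxylase, Cyp7a1, the rate-limiting enzyme of bile acid synthesis, Cyp8b1, the sterol 12-alpha-hydroxylase that makes cholic acid, and the adrenal enzymes Cyp11a1, Cyp11b1 and Cyp11b2. Cyp24a1, which inactivates vitamin D, and the retinoic acid hydroxylases Cyp26a1 and Cyp26c1 were also not well above background. The 3 members detected on 1 array were Cyp2a12 and Cyp4a32 in metformin 1 and Cyp4a14 in metformin 2. Cyp2a12 had -8.40, -9.40, -4.47 and -8.58, so that it was near background except in metformin 1. Of 12 hepatocyte markers 7 were measured, with sums of 20.02 to 23.1 in the controls and 8.37 to 29.9 in the metformin samples, and the liver-defining Alb, Ahsg, Fga, Fgb and Fgg were not well above background.

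Genes that work with P450 enzymes were mostly highest in metformin 1 as well. Over all 10 pathway lists, limma called 0 genes at a Benjamini-Hochberg adjusted p of 0.05 in either direction and 0 at an unadjusted p under 0.05. Of 18 redox partners and cofactor enzymes, all measured, 0 were at least 2-fold different with no overlap, the rule used for all lists. In this list 16 had a positive and 2 a negative difference, against 11470 and 8730 of all genes measured on all arrays. Metformin 1 was highest for 14 of the 18, against 38% of all such genes. Por, the P450 oxidoreductase, had levels of 4.25, 4.31, 5.37 and 4.50, and Alas1, the entry enzyme of haem synthesis, had 4.31, 4.58, 5.19 and 4.85. In both genes the metformin samples lay above the controls, by less than 2-fold in the group means.

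Of 21 receptors and partner factors that control P450 genes, all measured, 1, Rarb, was at least 2-fold lower with no overlap. Rarb, a retinoic acid receptor, had -4.27, -5.71, -5.74 and -6.35, so that control 2 and metformin 1 were level. Nr1i3, which encodes CAR, had -0.61, -1.50, 1.43 and -1.55, with metformin 1 high, as for Cyp2b10. Nr1i2, which encodes PXR, had 2.74, 2.40, 3.17 and 2.77, and Ahr had -0.09, -0.46, 0.52 and -0.56. Nr1i3, Nr1i2 and Ahr were named after their values were seen.

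Few target genes of the same receptors outside the family met the 2-fold rule, which needs both metformin samples beyond both controls. Relative to the control mean, the median in metformin 1 was 0.63 for PXR and CAR targets, 0.01 for AhR targets and -0.28 for PPARA targets. In metformin 2 these medians were 0.005, 0.09 and 0.16. Metformin 1 was the highest array for 5 of 8, 3 of 6 and 5 of 13 genes measured in these lists, against 38% of all genes measured on all arrays. The PPARA count is near that share. Of 10 PXR and CAR targets 8 were measured and 1 was at least 2-fold higher with no overlap: Gstm3, a glutathione transferase, with 3.69, 3.32, 5.35 and 3.84. Of 8 AhR targets 6 were measured, and none met the rule. Ahrr, the AhR repressor, had -4.87, -6.13, -4.17 and -6.27, and Aldh3a1, an aldehyde dehydrogenase, had -0.25, -0.43, -0.01 and -0.28. All 13 PPARA targets were measured and none met it. Fabp1, a fatty acid-binding protein, had 6.65, 6.06, 8.48 and 5.82, with metformin 1 high.

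Among substrate pathways, 11 of 13 epoxide hydrolases and eicosanoid enzymes were measured, and 1 was at least 2-fold lower: Ptgis, prostacyclin synthase, with -2.20, -4.03, -4.25 and -5.07, where control 1 was high. Of 16 retinoid-handling genes 15 were measured, with Rarb the 1 lower. Of 8 vitamin D targets 5 were measured and none met the rule. S100g, the calcium-binding calbindin of the gut, had -0.17, -0.16, -1.10 and -0.02, and the calcium channel gene Trpv6 had -4.92, -4.36, -4.71 and -3.82. Of 13 steroid synthesis and inactivation genes 12 were measured, again with none that met it, and the receptor gene Nr5a2 had 1.53, 0.32, 0.37 and 0.48. All 10 bile acid genes of the ileum were measured, none met the rule, and their median was -1.27 relative to the control mean in metformin 1 and 0.21 in metformin 2. The members of smallest p in that list were Fabp6, given above, and Slc27a5, a bile acid ligase, with -4.24, -4.69, -3.54 and -4.27.

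Several marker lists had metformin 1 apart, as the P450 genes did. The median of the proximal small intestine markers lay 2.12 above the control mean in metformin 1 and at -0.42 in metformin 2. Of the 13 measured, 9 were highest in metformin 1, against 38% of all genes measured on all arrays. Lct, the brush-border lactase, had 6.10, 5.61, 8.43 and 4.83, and Gata4, a transcription factor of the proximal gut, had 0.27, 0.45, 2.32 and -0.44. Other proximal markers went the other way: Cybrd1, Slc40a1 and Cps1 were lowest in metformin 1, and Bco1 was highest in control 1. Slc40a1 had 0.75, -1.37, -1.69 and 0.05, and Cps1 had 0.87, 1.53, 0.15 and 0.96. All 10 T and innate lymphoid cell markers were highest in metformin 1, with a summed level of 33.2 in metformin 1, 11.6 in metformin 2 and 8.45 to 10.48 in the controls. The 12 epithelial markers, none of which met the rule, had a median of 0.04 in metformin 1 and 0.28 in metformin 2. By the same rule 1 of 13 measured proximal markers was higher, and 1 of 10 T and innate lymphoid cell markers. So were 1 of 7 macrophage, dendritic cell and neutrophil markers, S100a9, and 1 of 7 pancreatic acinar markers, Cela3b. Of 8 enteric neuron and glia markers 3 were lower, among them Vip. S100a9 and Cela3b were kept only through the metformin group and Vip only through the control group, so a difference was built in. Over all features, the 2-fold rule was met by 0.628% higher and 2.32% lower. None met it among the 10 distal, 6 Paneth, 7 goblet, 9 enteroendocrine, 8 B and plasma cell, 7 hepatocyte, 5 keratinocyte and 3 steroidogenic cell markers measured. The part of gut region and cell makeup in the P450 pattern was not tested.

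**Figure D4:**
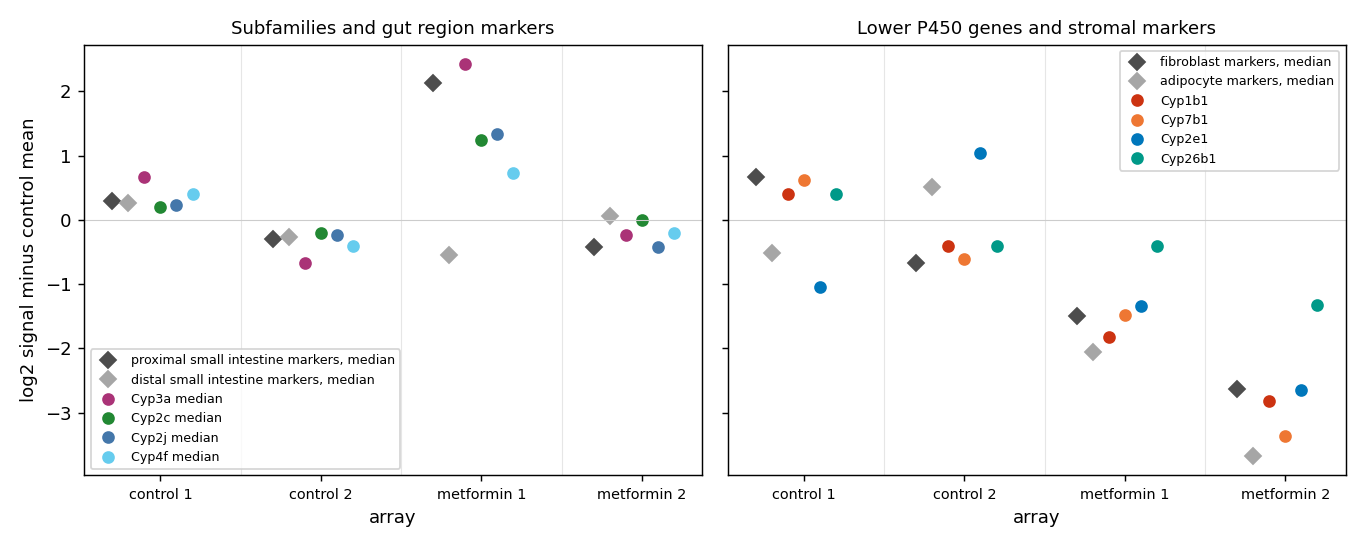
Log2 level minus the control mean on each array, with the medians of 4 P450 subfamilies and of gut region markers in the left panel and 4 single P450 genes with fibroblast and adipocyte marker medians in the right panel; diamonds are marker lists and circles P450 genes. The Cyp3a median of 2.42 and the proximal marker median of 2.12 stand apart in metformin 1, and Cyp1b1, Cyp7b1 and Cyp2e1 lie low in both metformin arrays, as do both marker medians.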

How the data were processed

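Ileal RNA was measured on 4 single-colour Agilent arrays, 2 per group. The deposited scanner files hold linear spot intensity values from Feature Extraction 10.7.3.1 on mm9, per the file headers, background-subtracted and not scaled between arrays. The deposited series table equals the raw median intensity of each array for all 39030 single-spot probes, with column medians of 91, 112, 78 and 87, and served as an alternative after scaling.

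The processed signal was log2-transformed and each array's 75th percentile subtracted. Flagged outlier spots were left out and repeated spots averaged. Without a usable spot on every array, 47 of 39429 probes were dropped. Accessions matched the RefSeq table of GRCm38.p6 for 27508 probes, and 11921 stayed unnamed. The brightest probe of a gene was used. Groups were compared with limma 3.58.1 in R 4.3.3 (lmFit and eBayes, two-sided), with Benjamini-Hochberg adjustment at 0.05, residual degrees of freedom of 2 and prior of 2.43. The fit was tested on simulated data. At the adjusted threshold it called 0.2% of genes given a log2 change of 1, so most differences of 2-fold size would be missed. It called 40.25% of genes given a change of 3 and 0.016% of unchanged genes. The number of arrays limits the precision.

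Every array is given for members 2-fold different without overlap, for members whose range was at least 3 on the log2 scale, and for 40 candidate genes. Pathway genes were named if 2-fold different without overlap, otherwise the 2 of smallest p. A gene that this rule names is not reported here. The members and the 28 lists were chosen with earlier results of these data known. Alternatives were normexp correction (on the median signal, as no mean signal was used), quantile normalization, median centring, filters, probe averaging, kept outlier spots, the replicate block, leaving out each array and, added after seeing the data, 5 more gene names with other symbol forms.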

Additional observations from a re-analysis of the deposited data

How the results depend on the processing

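The differences of the 7 genes that were at least 2-fold different without overlap kept their direction under each alternative that gave a value for them. Cyp2b19, Cyp2d9 and Cyp7b1 had no value with the requirement of all arrays, and the added gene names were run for the counts and the median alone. No member passed the adjusted threshold in limma under any alternative. The count of 2-fold higher members was 0 after normexp correction, 2 with the requirement of all arrays, 2 with the scaled deposited table and 6 with median centring, which added Cyp3a25 and Cyp3a57. With the scaled deposited table the differences of Cyp1b1, Cyp7b1 and Cyp2b19 were -1.18, -1.05 and 0.45. The count of higher members ranged from 2 to 36 when an array was left out. The count of lower members was 1 after normexp correction, 2 with the requirement of all arrays, and 3 to 8 when an array was left out. Over all features, the 2-fold rule was met by 136 higher and 502 lower, by 13 and 116 after normexp correction, by 212 and 412 with median centring, and by 22 and 197 with the scaled deposited table. The median difference of the family ranged from -0.19 to 1.13 when an array was left out. Metformin 1 was the highest array for 44 to 46 of the 59 members under the 5 scalings. With the replicate number as a block, the counts were 4 higher and 3 lower, the median difference 0.46, and the count at the adjusted threshold 0, the same as without it, with a smallest adjusted p of 0.634 among members. Same-numbered samples deviated together (r = 0.56 across 21648 genes, which are not independent replicates), but the labels do not pair the samples. The 5 added gene names left the counts at 4 and 3. Background limits Cyp2b19, Cyp2d9 and Cyp7b1 to bounds, and 2 arrays per group limit every comparison. When an array was left out, the remaining array of its group was assumed to vary like the other group.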
